A study of Mus musculus with 8 samples.

Results

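Sertoli cell-like cells (SCLCs) sorted on day 12 of culture were compared with the embryonic stem cells (ESCs) they were grown from, and the comparison covered every gene with a mean raw count above 10 over the 4 libraries concerned. That rule kept 16509 of the 46078 gene IDs in the count files, and 4 of the 8 libraries of the series. Both groups carried the genotype XY;tesco-cfp;Sf1 on the C57BL/6 strain. The parent line, tc;Sf1ESC, was 1 clone that had been electroporated with a mouse Sf1 (Nr5a1) expression plasmid and selected with G418, and it was kept without feeders in N2B27 medium with LIF and the inhibitors PD0325901 and CHIR99021. The SCLCs came from the same clone after a change of medium. They were grown first in mesoendoderm medium with CHIR99021 and the retinoid TTNPB, then in renal/adrenal/gonadal medium with CHIR99021, BMP7 and FGF9, and on day 12 the CFP-positive cells were sorted. The 4 remaining libraries came from tcESC (XY;tesco-cfp, the line before the Sf1 plasmid) and from germ cell-like cells of the genotype XY;Prdm1-gfp. Of these, the tcESC values are given for some genes to show where the parent line started.

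The groups therefore shared the reporter, the transgene and the clone, and differed in culture, in sorting and in time. The tesco-cfp reporter is driven by an enhancer of Sox9, so the level of Sox9 in the sorted cells is tied to the gate and is no independent finding. In bulk RNA, fewer cells of a type and less RNA per cell cannot be told apart, and this holds for every gene below.

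Sertoli cells are the supporting cells of the testis cords. They arise from the coelomic epithelium of the bipotential gonad under Gata4, Wt1 and Nr5a1, switch on Sox9 and Dmrt1, secrete anti-Müllerian hormone, and lay down the basement membrane around the cords together with the neighbouring peritubular cells. ESCs in inhibitors and LIF sit close to the preimplantation epiblast, whose first sister lineage is the primitive endoderm. Primitive endoderm gives rise to visceral endoderm, an absorptive epithelium that takes up maternal protein through cubilin and megalin and secretes carriers such as alpha-fetoprotein and apolipoproteins, and to parietal endoderm, which secretes the very thick laminin and collagen IV sheet known as Reichert's membrane.

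The libraries held 25926410 and 27675631 counts on genes in tc;Sf1ESC and 26501628 and 29092453 in SCLC, so that 3 counts, the smallest amount treated as detected here, equalled 0.103 to 0.116 CPM (counts scaled to 1000000 per library). The tc;Sf1ESC libraries were much more alike than the SCLC libraries. The chi-square of counts over genes per degree of freedom was 1.44 within tc;Sf1ESC and 30.9 within SCLC, and the SD of the log2 difference was 0.297 and 0.514. The labels call the libraries of each group biological duplicates and do not say whether they were separate inductions. The test used below fits 1 spread per gene over both groups, so its p-values and standard errors rest on a spread pooled over these libraries. Where the SCLC libraries differ more than the tc;Sf1ESC libraries, that pooled spread is smaller than the spread of the SCLCs. A gene was called when its fold change exceeded 2 with an adjusted p under 0.05 in the quasi-likelihood test of edgeR, adjusted after Benjamini and Hochberg for every gene in the fit. Every adjusted p below is from that test, and log2 fold changes are SCLC over tc;Sf1ESC with 2 libraries a group.

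The expression of 6940 genes, 42.0% of those tested, was called between the groups. In SCLCs 4023 genes (24.4%) were higher and 2917 (17.7%) were lower. The changes were large, with a median size of 2.31 on the log2 scale among the genes that rose and of 1.91 among those that fell. More than 3 log2 units separated the groups for 1484 of the genes that rose and 716 of those that fell, and more than 5 units for 694 and 189. Of the higher genes 532 had no more than 3 counts in each tc;Sf1ESC library, and of the lower genes 187 had no more than 3 counts in each SCLC library. Libraries of the groups did not overlap for 86.8% of all genes tested, so a lack of overlap alone says little about any gene here. The median log2 fold change over all genes was 0.02. Since such a large share of genes was called, the count of each gene list below is to be read against 24.4% higher and 17.7% lower.

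**Figure D1:**
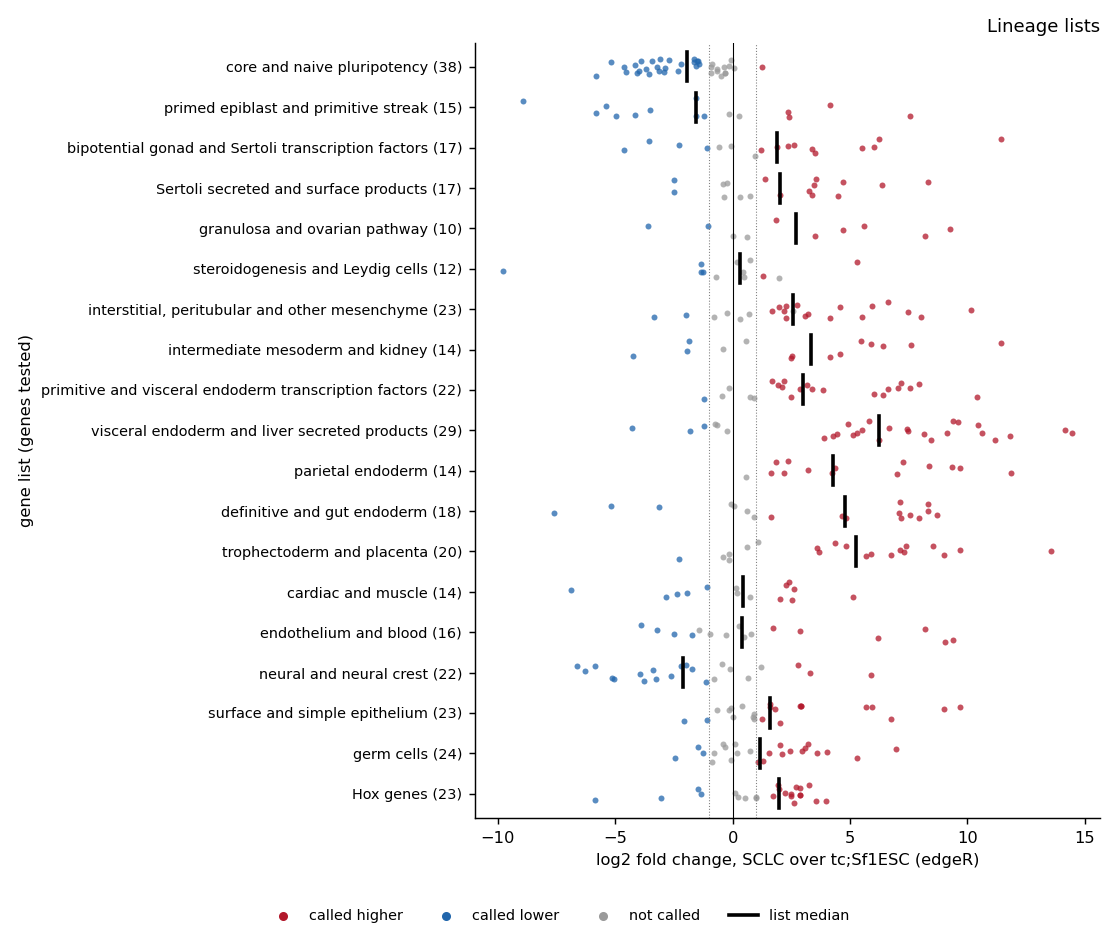
Log2 fold change of every tested gene of the 19 lineage lists (x axis, SCLC over tc;Sf1ESC, edgeR) by list (y axis, with the number of genes tested). Each point is 1 gene, coloured by its call, black bars are list medians and dotted lines mark a 2-fold change. The pluripotency and neural lists lie to the left of 0 with medians of -1.93 and -2.10, while the visceral endoderm product, trophectoderm, gut endoderm and parietal endoderm lists lie to the right with medians of 6.24, 5.26, 4.77 and 4.29.

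The genes that rose most show the character of the change. Igfbp1, a secreted binding protein for insulin-like growth factors, was not counted in either ESC library and reached 113 and 91.0 CPM in the SCLC libraries, at least 910-fold higher against 3 counts per library, the floor used for every gene at 0 in a group. Habp2, a serine protease that binds hyaluronan, went from 0.0386 and 0 CPM to 307 and 359 CPM, a ratio of 17902 with a counting interval of 3213 to 707117. Such 95% intervals, given for genes with 1 to 3 counts in a library, are exact, rest on the pooled counts of each group, of which 1 library can hold all those of the lower group, and cover counting error only. Car4, a membrane-bound carbonic anhydrase, reached 77.5 and 117 CPM from 0 counts, at least 869-fold higher. All 3 were absent or at a trace in both ESC libraries and well measured in both SCLC libraries. Ugt2b34, a glucuronosyltransferase, and Enpep, the aminopeptidase that trims angiotensin at the surface of absorptive epithelia, were likewise at 0 in both ESC libraries and at 77.0 and 71.6 CPM and 64.5 and 72.0 CPM in the SCLC libraries. S100g, the intestinal and placental calcium-binding protein, was at 0 in ESCs and at 23.4 CPM in SCLC rep1 and 102 CPM in SCLC rep2, so its level differed widely between the SCLC libraries.

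The genes that fell most were of other kinds. Cyp1a1, the detoxifying cytochrome that responds to the aryl hydrocarbon receptor, fell from 83.9 and 89.1 CPM to 0.0377 and 0.103 CPM, a ratio of 1203 with a counting interval of 469 to 4416 in favour of ESCs. Trpm1, a cation channel, fell from 253 and 250 CPM to 0.226 and 0.241 CPM (log2 fold change -10.01 ± 0.105, SE). Trh, the precursor of thyrotropin-releasing hormone, fell from 653 and 663 CPM to 3.62 and 2.92 CPM (-7.62 ± 0.121). For Trpm1 and Trh the libraries within each group were close to each other and the groups lay far apart. Sp5, a zinc finger factor and known target of Wnt signalling, fell from 75.1 and 71.3 CPM to 0.641 and 0.344 CPM. Nkx1-2, a homeobox gene of the streak and tail bud, fell from 20.8 and 19.3 CPM to 0 and 0.0687 CPM, a ratio of 557 with a counting interval of 154 to 4609.

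The pluripotency programme was lost in large part but not wholly. Of its 38 genes, all of which were tested, 25 were lower and 1 was higher, with a median log2 fold change of -1.93 against 0.02 for all genes. Pou5f1, the core factor OCT4, measured 497 and 505 CPM in the tc;Sf1ESC libraries and 119 and 77.8 CPM in the SCLC libraries, a log2 fold change of -2.31 ± 0.212 (SE; edgeR adjusted p = 0.000612). Nanog measured 701 and 689 CPM and then 69.4 and 21.3 CPM (-3.91 ± 0.575, edgeR adjusted p = 0.0029). Sox2 measured 616 and 602 CPM and then 101 and 35.1 CPM (-3.13 ± 0.51, edgeR adjusted p = 0.00417). All 3 were lower in both SCLC libraries, and all 3 were higher in SCLC rep1 than in rep2. Zfp42, the naive marker REX1, kept 75.3 and 64.4 CPM of 230 and 220 CPM (-1.65 ± 0.0942). Signalling genes and Nr0b1 fell further, with Lefty2, an inhibitor of Nodal, at -5.81 ± 0.253, Fgf4, the epiblast growth factor, at -5.17 ± 0.577, and Nr0b1, the orphan nuclear receptor DAX1, at -4.62 ± 0.13. The only member that rose was Lin28a, an RNA-binding protein that blocks let-7 maturation, from 72.1 and 69.1 CPM to 194 and 140 CPM (1.27 ± 0.165, edgeR adjusted p = 0.0019). The summed level of the list was 13968 and 13911 CPM in ESCs and 4117 and 3289 CPM in SCLCs. Without SCLC rep1 the log2 fold change was -4.98 for Nanog, -4.07 for Sox2 and -6.38 for Fgf4, and without SCLC rep2 it was -3.27, -2.53 and -4.47.

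Of 15 tested primed epiblast and streak genes 9 were lower and 4 higher, with a median of -1.55. T, the streak factor brachyury, fell from 8.76 and 10.3 CPM to 0.0755 and 0.241 CPM. Its log2 fold change was -5.82 ± 0.403 with all libraries, -5.23 without SCLC rep1 and -6.85 without SCLC rep2. Fgf5 and Otx2, markers of the primed epiblast, were already low in ESCs at 0.579 and 0.831 CPM and 2.78 and 3.58 CPM, and were lower still in SCLCs. Their calls did not hold in every fit. Fgf5 had an edgeR adjusted p of 0.0401 with all libraries, 0.0669 without tc;Sf1ESC rep1 and 0.0631 without SCLC rep1. Its log2 fold change of -1.55 was -2.14 without SCLC rep2. Otx2 had a log2 fold change of -1.20, which was -1.02 with an edgeR adjusted p of 0.125 without tc;Sf1ESC rep2, and -0.98 without SCLC rep2. Eomes, shared by streak and trophoblast, was at 8.91 and 8.06 CPM in ESCs and 6.08 and 8.63 CPM in SCLCs and was not called. The members that rose were Foxa2, Lhx1, Tbx6 and Pou3f1.

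Neural and neural crest genes had the lowest median of the lineage lists, -2.10, and 14 of 22 tested genes were lower and 3 higher. Stmn2, a microtubule regulator of neurons, fell from 214 and 217 CPM to 2.91 and 1.41 CPM (-6.62 ± 0.277). Tubb3, neuronal beta-tubulin, fell from 107 and 110 CPM to 6.53 and 7.12 CPM (-3.96 ± 0.0889). Foxd3, which is shared by naive ESCs and neural crest, fell from 30.8 and 29.7 CPM to 0.377 and 0.619 CPM. Pax6 went the other way, from 0.27 and 0.289 CPM to 3.77 and 1.65 CPM (3.28 ± 0.565, and 2.59 without SCLC rep1). Sox1, the neural plate marker, fell from 5.32 and 4.84 CPM to 0.189 and 0.103 CPM.

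Of transcription factors of the bipotential gonad and Sertoli cell, 10 of 17 tested genes were higher and 4 lower, with a median of 1.91. Their levels were very unequal. Gata4, which the early gonad shares with endoderm and heart, rose from 6.60 and 6.65 CPM to 415 and 431 CPM (6.03 ± 0.0758, edgeR adjusted p = 1.36e-05). Nr5a1, the gene of the transgene, measured 2.01 and 1.08 CPM in ESCs and 12.9 and 18.4 CPM in SCLCs (3.37 ± 0.354, edgeR adjusted p = 0.000939). The counts did not separate transcripts of the plasmid from those of the endogenous gene on chromosome 2. Dmrt1, which maintains male fate in the testis and is also made by germ cells, rose from 5.13 and 4.59 CPM to 35.7 and 13.3 CPM (2.36 ± 0.503, and 1.51 without SCLC rep1). Gata4 was nearly equal in the SCLC libraries, while Dmrt1 was higher in SCLC rep1.

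Sox9, whose enhancer drives the sorted reporter, measured 0.27 and 0 CPM in ESCs and 7.77 and 4.47 CPM in SCLCs (5.53 ± 0.821). Because tc;Sf1ESC rep2 had no Sox9 count, its fitted log2 fold change was 4.49 without that library and 10.41 without tc;Sf1ESC rep1. Wt1, needed for gonad and kidney, measured 0.347 and 0.47 CPM and then 2.26 and 0.791 CPM (1.91 ± 0.632, edgeR adjusted p = 0.0444). That call was lost without tc;Sf1ESC rep1 (edgeR adjusted p = 0.139), without tc;Sf1ESC rep2 (0.0896) and without SCLC rep1 (0.0651, log2 fold change 0.99), and without SCLC rep2 the log2 fold change was 2.51. Emx2, a homeobox gene of the gonadal ridge and nephric duct, was at 0 in both ESC libraries and at 10 and 14.8 CPM in SCLCs, at least 111-fold higher. Per length of transcript, in TPM (length-corrected levels scaled to the same total), the SCLC means were 413 for Gata4, 35.8 for Dmrt1, 14.0 for Nr5a1, 5.62 for Sox9 and 0.936 for Wt1. Among the genes that fell were Nr0b1 and Zfpm2, the cofactor of Gata4 known as FOG2, which went from 2.62 and 3.14 CPM to 0.189 and 0.275 CPM (-3.57 ± 0.345).

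Products of differentiated Sertoli cells were only in part present. Of the 30 genes listed, 17 passed the filter, 10 were higher and 2 lower, with a median of 2.02. Amh, anti-Müllerian hormone, measured 0.656 and 0.867 CPM in ESCs and 0.377 and 0.756 CPM in SCLCs and was not called (-0.38 ± 0.456, edgeR adjusted p = 0.488). Fshr, the receptor for follicle-stimulating hormone, had 0 counts in all 4 libraries. Cldn11, the claudin of the Sertoli cell barrier, had no count in ESCs and 2.26 and 0.653 CPM in SCLCs, at least 13.0-fold higher by their mean, 5.83-fold by SCLC rep2 alone and 20.2-fold by SCLC rep1 alone. Inha, the inhibin alpha chain, rose from 0.386 and 0.289 CPM to 7.92 and 9.28 CPM (4.69 ± 0.266, edgeR adjusted p = 0.000156). So of these 4 defining products, Inha and Cldn11 rose, Amh did not pass the test and Fshr was not detected at this depth. Vnn1, a pantetheinase of fetal Sertoli cells that is also abundant in gut and kidney epithelium, rose from 0.579 and 0.687 CPM to 41.2 and 61.8 CPM. Clu, the chaperone clusterin, rose from 2.78 and 3.50 CPM to 65.2 and 73.7 CPM, and Insr, the insulin receptor required for testis determination, from 39.2 and 38.0 CPM to 151 and 155 CPM. Trf, transferrin, stayed at or under 0.108 CPM throughout.

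Genes of the other gonadal cell types were mixed. Of 10 tested genes of the granulosa and ovarian pathway 6 were higher and 2 lower. Runx1, which supports the fetal ovarian programme and also blood and epithelia, rose from 0.347 and 0.217 CPM to 74.8 and 88.7 CPM, and Fst, the activin antagonist follistatin, from 22.9 and 21.7 CPM to 90.9 and 67.9 CPM. Wnt4, another defining gene of this list, was called higher. It went from 6 counts over both ESC libraries to 164 counts over both SCLC libraries, a ratio of 26.4 with a counting interval of 11.9 to 72.9. Rspo1, also a defining gene, was not called at a log2 fold change of 0.62, and Foxl2, a defining granulosa factor, did not pass the filter. Axin2, a feedback target of Wnt signalling, fell from 150 and 151 CPM to 10.9 and 13.2 CPM (-3.61 ± 0.113). Of 12 tested genes of steroidogenesis and Leydig cells 2 were higher and 4 lower. Star, which carries cholesterol into mitochondria, fell from 17.4 and 16.1 CPM to 5.58 and 8.01 CPM. Cyp17a1, of androgen synthesis, had 1 count in each ESC library and reached 1.32 and 1.92 CPM, a ratio of 43.9 with a counting interval of 11.8 to 368. Cyp11a1, the side-chain cleavage enzyme, was at 0.231 and 0.145 CPM and then 0.189 and 1.27 CPM and was not called, although without SCLC rep1 it passed the test at a log2 fold change of 2.79.

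**Figure D2:**
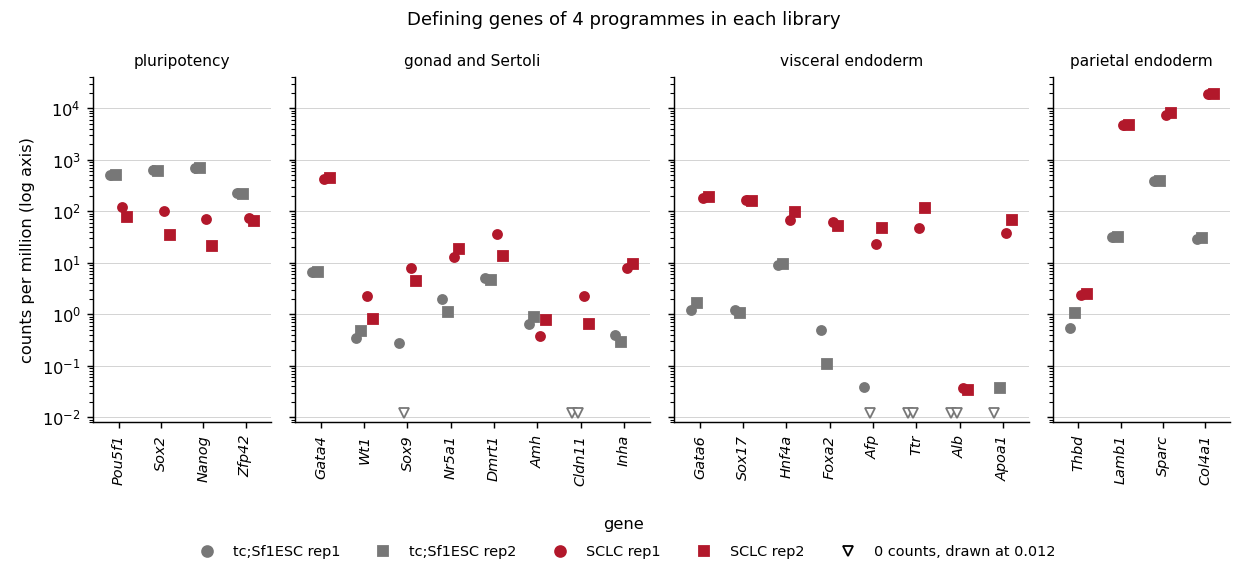
CPM (y axis, log scale) of the defining genes of the pluripotency, gonad and Sertoli, visceral endoderm and parietal endoderm lists (x axis) in each of the 4 libraries, with open triangles at the bottom for 0 counts. Gata4, Gata6, Sox17, Lamb1, Sparc and Col4a1 lie at nearly the same height in both SCLC libraries, Amh overlaps between the groups, and Alb is at 1 count in each SCLC library.

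Endoderm lists, of the yolk sac and of the gut, were among the lineage lists with the highest medians. Of 22 tested transcription factors of primitive and visceral endoderm 17 were higher and 1 lower, with a median of 3.02. Gata6, which directs primitive endoderm fate, rose from 1.23 and 1.63 CPM to 181 and 189 CPM (7.04 ± 0.131, edgeR adjusted p = 2.17e-05). Sox17 rose from 1.23 and 1.05 CPM to 167 and 159 CPM (7.19 ± 0.11, edgeR adjusted p = 2.09e-05). Sox7, its relative with a preference for parietal endoderm, rose from 0.154 and 0.289 CPM to 53.5 and 57.1 CPM (7.95 ± 0.203). These 3 factors were within a narrow range in the SCLC libraries. Hnf4a, the regulator of visceral endoderm and liver, rose from 8.99 and 9.58 CPM to 66.9 and 94.5 CPM (3.15 ± 0.198). Foxa2 rose from 0.501 and 0.108 CPM to 61.1 and 51.3 CPM. Its log2 fold change of 7.56 became 8.96 without tc;Sf1ESC rep1 and 6.81 without tc;Sf1ESC rep2. Per length the SCLC means were 130 TPM for Sox17, 108 for Gata6, 90.1 for Foxa2 and 63.6 for Hnf4a.

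Secreted products of visceral endoderm and liver followed. Of 40 genes listed 29 passed the filter, and of these 23 were higher and 3 lower, with a median of 6.24, or 4.74 when the genes at the floor in 1 group were set to their bound. Ttr, transthyretin, had no count in ESCs and 46.8 and 117 CPM in SCLCs, at least 732-fold higher by their mean and 418-fold by SCLC rep1 alone. Afp, alpha-fetoprotein, went from 0.0386 and 0 CPM to 22.8 and 48.1 CPM, a ratio of 1932 with a counting interval of 346 to 76355 (a ratio of 1222 without SCLC rep2). Apoa1, the main protein of high-density lipoprotein, went from 0 and 0.0361 CPM to 37.0 and 68.8 CPM, a ratio of 2876 with a counting interval of 516 to 113638. For each of these 3 carriers SCLC rep2 was the higher library. Apob, the core of lipid particles that yolk sac and liver export, rose from 2.62 and 1.70 CPM to 50.8 and 143 CPM (5.52 ± 0.653, with 6.11 without SCLC rep1 and 4.62 without SCLC rep2). Alb, albumin, the defining product of the liver, had 1 count in each SCLC library and did not pass the filter. Amn, which anchors cubilin at the apical membrane, rose from 0.424 and 0.397 CPM to 237 and 389 CPM (9.59 ± 0.413). Fetub, a liver protease inhibitor, went against the list and fell from 55.8 and 54.5 CPM to 3.21 and 2.27 CPM (-4.30 ± 0.175).

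All 14 genes of the parietal endoderm list were tested, 13 were higher and none was lower, with a median of 4.29. Its summed level was 1826 and 1840 CPM in ESCs and 38822 and 38966 CPM in SCLCs, an almost identical value in both SCLC libraries. Pth1r, the receptor for parathyroid hormone-related protein whose appearance accompanies the step to parietal endoderm, rose from 0.193 and 0.108 CPM to 506 and 633 CPM (11.88 ± 0.248, edgeR adjusted p = 2.17e-05). Krt19, a keratin of simple epithelia, rose from 0.193 and 0.181 CPM to 139 and 171 CPM (9.69 ± 0.216). Thbd, thrombomodulin, was the defining member with the smallest rise, from 0.54 and 1.05 CPM to 2.34 and 2.47 CPM (1.62 ± 0.373), and its call was lost without tc;Sf1ESC rep1 (edgeR adjusted p = 0.0915). The matrix members Col4a1, Lamb1 and Sparc are described with the basement membrane.

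Of 18 tested genes of definitive and gut endoderm 11 were higher and 3 lower, with a median of 4.77 (3.69 with genes at the floor set to their bound). Sox17 and Foxa2, given above, belong to this list as well. Ihh, a hedgehog ligand of visceral endoderm and gut, rose from 0.463 and 0.397 CPM to 82.2 and 123 CPM (7.92 ± 0.327). Cdx1, a homeobox gene of the hindgut and posterior embryo, fell from 41.9 and 39.4 CPM to 1.28 and 0.928 CPM (-5.17 ± 0.176). Pdx1 and Nkx2-1, which mark pancreas and lung or thyroid, did not pass the filter.

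Of 20 tested genes of trophectoderm and placenta 14 were higher and 1 lower, with a median of 5.26 (4.68 with genes at the floor set to their bound). The defining factors of the trophectoderm did not change alike. Cdx2 was at 5.28 and 4.48 CPM in ESCs and 4.04 and 10.5 CPM in SCLCs and was not called, and Elf5 did not pass the filter. Without SCLC rep1, however, Cdx2 was called at a log2 fold change of 1.16. Gata3 rose from 0.27 and 0.145 CPM to 7.24 and 17.4 CPM (5.91 ± 0.668, and 5.17 without SCLC rep2). Hand1 was called higher too. It went from 1 count over both ESC libraries to 201 counts over both SCLC libraries, a ratio of 194 with a counting interval of 34.4 to 7692. Tpbpa, a marker of the placental spongiotrophoblast, had no count in ESCs and 35.0 and 74.1 CPM in SCLCs, at least 487-fold higher by their mean and 312-fold by SCLC rep1 alone. The keratins of simple epithelia rose together, Krt8 from 7.41 and 7.59 CPM to 339 and 422 CPM (5.70 ± 0.147) and its partner Krt18 from 0.887 and 0.759 CPM to 374 and 466 CPM (9.02 ± 0.193).

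Of 23 tested mesenchymal genes 16 were higher and 2 lower, with a median of 2.58. Pdgfra, a receptor shared by primitive endoderm and mesenchyme, rose from 2.62 and 3.58 CPM to 735 and 872 CPM (8.04 ± 0.192, edgeR adjusted p = 2.8e-05). Vim, the mesenchymal intermediate filament vimentin, went the opposite way, from 515 and 522 CPM to 56.1 and 45.0 CPM (-3.33 ± 0.124, edgeR adjusted p = 6.41e-05). Pdgfra and Vim lay on opposite sides in every library. Nr2f2, the nuclear receptor of interstitial cells, rose from 2.51 and 2.53 CPM to 12.3 and 11.3 CPM. Acta2 was called higher as well, at a log2 fold change of 7.48, so Vim was the only defining gene of the mesenchymal list that fell. Of 14 tested genes of intermediate mesoderm and kidney 9 were higher and 3 lower, with a median of 3.34 (2.61 with genes at the floor set to their bound). Pax2 rose from 0.116 and 0.145 CPM to 2.91 and 3.33 CPM (4.56 ± 0.346). Osr1 had no count in ESCs and reached 1.17 and 0.584 CPM, at least 7.83-fold higher by their mean and 5.21-fold by SCLC rep2 alone. Eya1, an early kidney cofactor, fell from 38.2 and 41.4 CPM to 1.62 and 2.51 CPM (-4.23 ± 0.216). Of 23 tested Hox genes 14 were higher and 4 lower, the lower ones including Hoxc12 (-5.86 ± 0.314, and -6.48 without SCLC rep2) and Hoxc13 (-3.06 ± 0.217) of the posterior end of the cluster. Posterior genes of the other clusters went both ways. Hoxa10 (2.89), Hoxa11 (2.69) and Hoxa13 (2.49) were higher, Hoxd13 (-1.34) was lower and Hoxb13 (0.11) was not called.

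Of 24 germ cell genes 13 were higher and 3 lower, with a median of 1.18. Stra8, which retinoic acid induces before meiosis, rose from 0.424 and 0.253 CPM to 62.0 and 22.5 CPM (6.98 ± 0.755, and 6.10 without SCLC rep1). Ddx4, the RNA helicase VASA, rose from 2.82 and 3.0 CPM to 29.1 and 24.0 CPM (3.22 ± 0.164). Dazl, a translational regulator of germ cells, did not pass the test at 39.0 and 39.5 CPM in ESCs and 60.6 and 22.9 CPM in SCLCs, which lay on either side of the ESC level. Prdm1, the regulator of germ cell fate, fell from 22.8 and 23.8 CPM to 11.6 and 7.46 CPM (-1.26 ± 0.229, and -0.95, not called, without SCLC rep2). Of 16 tested genes of endothelium and blood 6 were higher, Runx1 (described with the ovarian genes) among them, and 4 lower. The lower ones were Spi1 (-3.92), Etv2 (-3.24), Tek (-2.48) and Gata1 (-1.74). Hba-a1, an alpha-globin of red cells, had no more than 2 counts in any library. Flt1, a receptor for vascular endothelial growth factor, rose from 0.54 and 0.65 CPM to 410 and 377 CPM (9.38 ± 0.124), and Cdh5, VE-cadherin, from 0.0771 and 0.108 CPM to 29.6 and 70.2 CPM, a ratio of 545 with a counting interval of 233 to 1680 (a ratio of 317 without SCLC rep2). Kdr, the other main receptor of that family, was at 2.08 and 1.66 CPM and then 2.11 and 2.96 CPM and was not called.

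Every receptor list had members that rose and members that fell. Of 34 tested receptor tyrosine kinases 15 were higher and 5 lower, with a median of 0.89. Besides Pdgfra and Flt1, Fgfr3 rose from 0.347 and 0.253 CPM to 34.4 and 37.4 CPM (6.92 ± 0.188). Fgfr1, the main FGF receptor of ESCs, fell from 198 and 195 CPM to 60.4 and 64.9 CPM (-1.62 ± 0.0673). Kit, the receptor for stem cell factor, was at 278 and 276 CPM in ESCs and 348 and 271 CPM in SCLCs and was not called. The FGF receptors therefore moved in opposite directions, and the ranges of Kit overlapped between the groups. Ntrk3, a neurotrophin receptor, fell from 5.4 and 4.48 CPM to 1 count in each SCLC library, a ratio of 137 with a counting interval of 37.5 to 1136.

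Among Eph receptors and ephrins 7 of 20 were higher and 4 lower. Efnb1 rose from 5.44 and 5.38 CPM to 64.0 and 80.6 CPM (3.77 ± 0.152), and Epha2, an ESC surface receptor, fell from 188 and 183 CPM to 45.8 and 35.7 CPM (-2.15 ± 0.132). Of 20 tested genes of the TGF-beta, activin and BMP receptor list 5 were higher and 4 lower, close to the background. Tgfbr2 rose from 4.78 and 3.69 CPM to 84.2 and 66.6 CPM (4.19 ± 0.192), and the coreceptor Tgfbr3 from 4.44 and 4.84 CPM to 73.8 and 99.5 CPM (4.25 ± 0.192). Bmpr1a, a receptor for BMP7 and its relatives, was at 114 and 112 CPM and then 185 and 176 CPM, which is short of 2-fold. Tdgf1, the Nodal coreceptor CRIPTO, fell from 553 and 559 CPM to 33.6 and 13.3 CPM (-4.54 ± 0.455, and -5.33 without SCLC rep1). Amhr2, the receptor for AMH, was low at 4.67 and 4.44 CPM and then 2.68 and 1.62 CPM. Its call at a log2 fold change of -1.06 was lost without tc;Sf1ESC rep1, tc;Sf1ESC rep2 or SCLC rep2, where the log2 fold change was -1.05, -1.11 and -0.71.

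Of 28 receptors of the Wnt, hedgehog and Notch pathways 11 were higher and 7 lower. Fzd10 fell from 92.3 and 93.9 CPM to 2.91 and 1.72 CPM (-5.31 ± 0.223), and Lgr5, the R-spondin receptor of stem cells, appeared from 0 counts to 3.32 and 2.2 CPM, at least 24.6-fold higher. Ptch1, the receptor and target of hedgehog, was at 82.7 and 76.8 CPM and then 86.4 and 59.8 CPM and was not called. Of 29 cytokine receptors 15 were higher and 3 lower. Lifr and Il6st, which together bind LIF, did not reach 2-fold, with Lifr at 135 and 133 CPM and then 212 and 198 CPM, and Il6st at 151 and 153 CPM and then 153 and 140 CPM. Il6ra fell from 54.2 and 55.8 CPM to 2.23 and 5.12 CPM (-3.86 ± 0.359, and -4.57 without SCLC rep2), while Ghr, the growth hormone receptor, rose from 1.20 and 1.30 CPM to 81.7 and 67.2 CPM (5.92 ± 0.166). Of 34 tested nuclear receptors 12 were higher and 7 lower. Rarb, a receptor and target of retinoic acid, had no more than 3 counts in each ESC library and reached 8.98 and 6.29 CPM, a ratio of 81.2 with a counting interval of 34.5 to 251, and Nr5a2, the relative of Nr5a1 in ESCs, fell from 171 and 164 CPM to 13.4 and 7.56 CPM (-3.97 ± 0.271).

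The endocytic machinery that takes up protein at the apical surface of visceral endoderm and kidney tubule rose by a wide margin. Cubn, cubilin, rose from 0.501 and 0.397 CPM to 1056 and 2108 CPM (11.80 ± 0.581, edgeR adjusted p = 0.000109). Lrp2, megalin, rose from 6.71 and 7.66 CPM to 960 and 1461 CPM (7.43 ± 0.284, edgeR adjusted p = 6.67e-05). Dab2, the adaptor that sorts both into clathrin pits, rose from 1.62 and 2.10 CPM to 793 and 1271 CPM (9.14 ± 0.359, edgeR adjusted p = 6.85e-05). With Amn, all 4 components stood at 7.66 CPM or less in both ESC libraries and at 237 CPM or more in both SCLC libraries, with SCLC rep2 the higher for each. In the whole list of 20 tested endocytic and scavenger receptors 9 were higher and 3 lower, with a median of 0.69. Tfrc, the transferrin receptor, fell from 599 and 604 CPM to 160 and 269 CPM (-1.46 ± 0.249), and Sorl1 from 132 and 134 CPM to 25.9 and 25.1 CPM (-2.35 ± 0.0675).

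**Figure D3:**
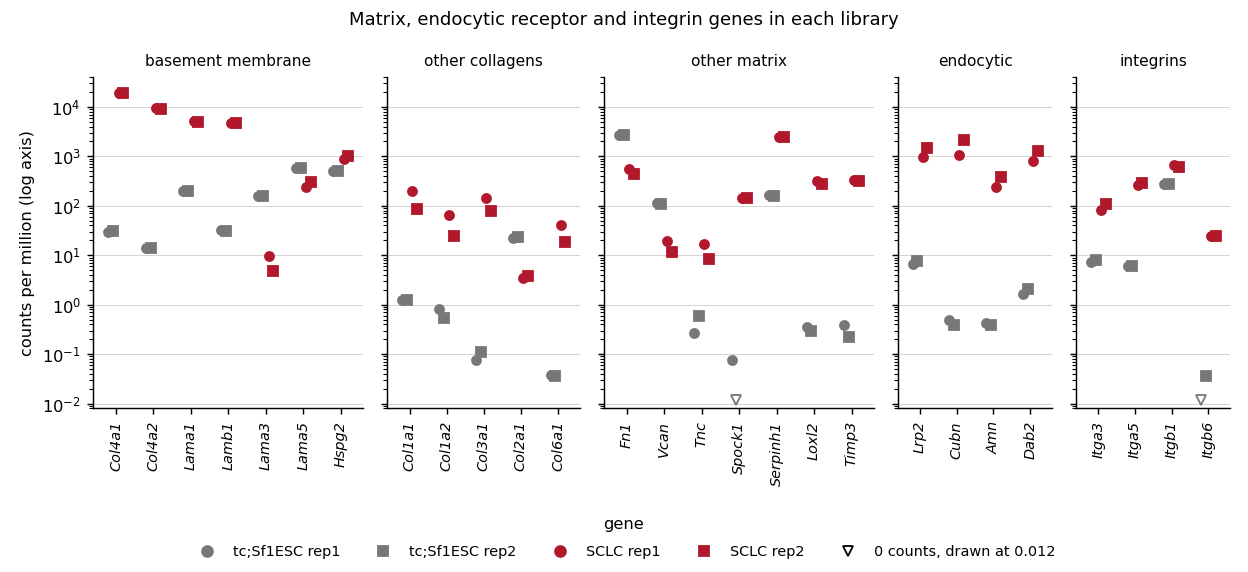
CPM (y axis, log scale) of basement membrane, other collagen, other matrix, endocytic receptor and integrin genes (x axis) in each library, with an open triangle at the bottom for 0 counts. Col4a1, Col4a2, Lama1 and Lamb1 sit far above the ESC libraries at nearly equal height in both SCLC libraries, Lama3, Lama5, Col2a1, Fn1 and Vcan sit below, and Hspg2 did not reach 2-fold.

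The basement membrane held the largest absolute gains of the comparison. Col4a1 and Col4a2 encode the chains of the common collagen IV, which assemble as a trimer. Col4a1 rose from 29.1 and 30.3 CPM to 19180 and 18783 CPM (9.35 ± 0.106, edgeR adjusted p = 1.27e-05), and Col4a2 from 14.0 and 14.1 CPM to 9586 and 9233 CPM (9.42 ± 0.0991, edgeR adjusted p = 1.27e-05). Both chains rose by nearly the same factor. Laminin chains followed, with Lamb1 rising from 31.9 and 31.1 CPM to 4796 and 4758 CPM (7.28 ± 0.0837) and Lama1 from 198 and 197 CPM to 5287 and 5016 CPM (4.74 ± 0.0788). Sparc, a collagen-binding protein of basement membranes, rose from 385 and 385 CPM to 7314 and 8020 CPM (4.35 ± 0.0892), and Serpinh1, the collagen chaperone HSP47, from 162 and 157 CPM to 2450 and 2462 CPM (3.97 ± 0.0686). Both SCLC libraries were close to each other for each of these genes and far from the ESC libraries. Per length, Col4a1 at 9672 TPM, Sparc at 7700 TPM, Col4a2 at 5407 TPM and Serpinh1 at 3824 TPM were among the 15 genes with the highest level in SCLCs, beside mitochondrial, ribosomal and elongation factor transcripts.

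The start sites of Col4a1 and Col4a2 lie on opposite strands of chromosome 8, 21 bases apart in the RefSeq annotation of GRCm38.p6, so that their promoter windows (250 bases before to 50 bases after the start) share 78 bases. The Col4a1 window at chr8:11312777-11313076, on the minus strand, is shown for that shared stretch, which is in capitals.
Col4a1: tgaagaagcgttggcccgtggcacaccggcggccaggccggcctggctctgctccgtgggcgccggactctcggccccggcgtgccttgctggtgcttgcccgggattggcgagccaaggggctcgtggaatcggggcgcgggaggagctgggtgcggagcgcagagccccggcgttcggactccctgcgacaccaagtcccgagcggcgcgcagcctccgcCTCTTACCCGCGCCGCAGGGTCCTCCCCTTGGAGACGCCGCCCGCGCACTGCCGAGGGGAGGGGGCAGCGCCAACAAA

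In the basement membrane list as a whole 17 of 27 tested genes were higher and 3 lower, with a median of 2.17, and the summed level went from 4760 and 4765 CPM to 55703 and 55075 CPM. The laminin alpha chains changed in both directions. Lama3, of epithelial laminin, fell from 159 and 161 CPM to 9.58 and 4.74 CPM (-4.46 ± 0.319), and Lama5, the alpha chain of later basement membranes, from 569 and 584 CPM to 240 and 296 CPM (-1.07 ± 0.114, and -0.91, under 2-fold, without SCLC rep1). Hspg2, perlecan, was at 505 and 503 CPM and then 876 and 1024 CPM, short of 2-fold at a log2 fold change of 0.95, and was called at 1.08 without SCLC rep1.

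Of 25 tested collagens outside the basement membrane 20 were higher and 2 lower, with a median of 3.17 (2.77 with genes at the floor set to their bound). Their summed level reached 857 CPM in SCLC rep1 and 552 CPM in SCLC rep2, far below the basement membrane list. Col1a1, of fibrillar collagen I, rose from 1.27 and 1.26 CPM to 202 and 86.7 CPM (6.86 ± 0.574, edgeR adjusted p = 0.000468), and Col3a1, of collagen III, from 0.0771 and 0.108 CPM to 144 and 77.8 CPM, a ratio of 1172 with a counting interval of 502 to 3610. Col6a1, of the collagen VI microfibrils around mesenchymal cells, went from 1 count in each ESC library to 41.6 and 18.3 CPM, a ratio of 788 with a counting interval of 218 to 6510 (a ratio of 489 without SCLC rep1). All 3 were higher in SCLC rep1, and without that library the log2 fold change of Col1a1 was 6.14. Col2a1, of cartilage and notochord, fell from 22.8 and 23.1 CPM to 3.51 and 3.88 CPM (-2.60 ± 0.134).

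Of 43 tested matrix glycoproteins and proteoglycans 26 were higher and 6 lower, with a median of 2.01. Fn1, fibronectin, fell from 2665 and 2692 CPM to 552 and 444 CPM (-2.40 ± 0.123, edgeR adjusted p = 0.000118), and Vcan, versican, from 112 and 111 CPM to 19.5 and 11.4 CPM (-2.82 ± 0.255). Spock1, a proteoglycan related to Sparc, went from 0.0771 and 0 CPM to 145 and 144 CPM, a ratio of 3869 with a counting interval of 1071 to 31955. Fibronectin therefore moved against Col4a1, Col4a2, Lama1 and Lamb1, and in the same direction as Lama3 and Lama5. Of 42 tested proteases, inhibitors and cross-linking enzymes of the matrix 29 were higher and 2 lower, with a median of 2.28. Loxl2, which cross-links collagen IV, rose from 0.347 and 0.289 CPM to 319 and 271 CPM (9.87 ± 0.173), and Timp3, a matrix-bound inhibitor of metalloproteinases, from 0.386 and 0.217 CPM to 334 and 314 CPM (10.09 ± 0.162). Timp1 was at 35.2 and 37.0 CPM and then 46.8 and 39.5 CPM and was not called.

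Of 17 tested integrins 6 were higher and 2 lower. Itga5, the alpha chain of the fibronectin receptor, rose from 6.06 and 6.03 CPM to 259 and 292 CPM (5.54 ± 0.10), Itga3, of a laminin receptor, from 7.21 and 8.06 CPM to 83.3 and 110 CPM (3.69 ± 0.177), and their common partner Itgb1 from 273 and 279 CPM to 654 and 614 CPM (1.23 ± 0.0657). Itgb6 appeared from no more than 1 count per ESC library to 24.7 and 24.6 CPM, a ratio of 1321 with a counting interval of 237 to 52211. Of 36 tested cadherins, claudins and junction genes 19 were higher and 6 lower. Cdh1, E-cadherin, fell from 932 and 930 CPM to 341 and 511 CPM, a log2 fold change of -1.10 that was -0.81, under 2-fold, without SCLC rep1. Cdh2, N-cadherin, fell further, from 16.8 and 16.4 CPM to 1.81 and 1.72 CPM (-3.20 ± 0.155). Cldn6, an embryonic epithelial claudin, rose from 12.3 and 13.4 CPM to 298 and 347 CPM (4.68 ± 0.117).

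Of 33 tested genes of glycolysis and lactate 14 were higher and 2 lower, with a median of 0.71. Slc16a3, the lactate exporter MCT4, rose from 10.6 and 11.3 CPM to 227 and 137 CPM (4.08 ± 0.282), Ldha, which makes lactate, from 307 and 297 CPM to 1004 and 760 CPM (1.58 ± 0.144), and Slc2a1, the glucose carrier GLUT1, from 146 and 147 CPM to 474 and 420 CPM (1.64 ± 0.0813). Ldhb, the other lactate dehydrogenase chain, fell from 153 and 151 CPM to 59.1 and 25.2 CPM (-1.82 ± 0.393, and -2.54 without SCLC rep1). The chains of lactate dehydrogenase thus changed in opposite directions. Hk2 and Pkm, of the first and last steps of glycolysis, were not called. Of 20 tested genes of gluconeogenesis and glycogen 11 were higher and 1 lower, among them Pygl, the liver glycogen phosphorylase, from 0.694 and 1.23 CPM to 27.6 and 28.8 CPM (4.89 ± 0.254).

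Most mitochondrial genes were not called. Of 75 tested nuclear genes of oxidative phosphorylation 8 were lower and 1 higher, with a median of -0.59, and of the 9 tested members of the mitochondrial genome list 2 were lower, with a median of -0.86. Cox5a, a subunit of cytochrome oxidase, fell from 83.5 and 91.5 CPM to 28.5 and 30.5 CPM (-1.54 ± 0.088), and mt-Nd1, of complex I, from 3852 and 3907 CPM to 1448 and 1819 CPM (-1.22 ± 0.125). Atp5b, of ATP synthase, was at 2248 and 2273 CPM and then 1392 and 1227 CPM, a log2 fold change of -0.76 that is short of 2-fold. In the tricarboxylic acid cycle 28 of 31 tested genes were not called. Me1, the cytosolic malic enzyme that yields NADPH, rose from 49.0 and 50.2 CPM to 444 and 407 CPM (3.13 ± 0.0761), and Idh1 fell from 551 and 535 CPM to 128 and 183 CPM (-1.77 ± 0.179).

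**Figure D4:**
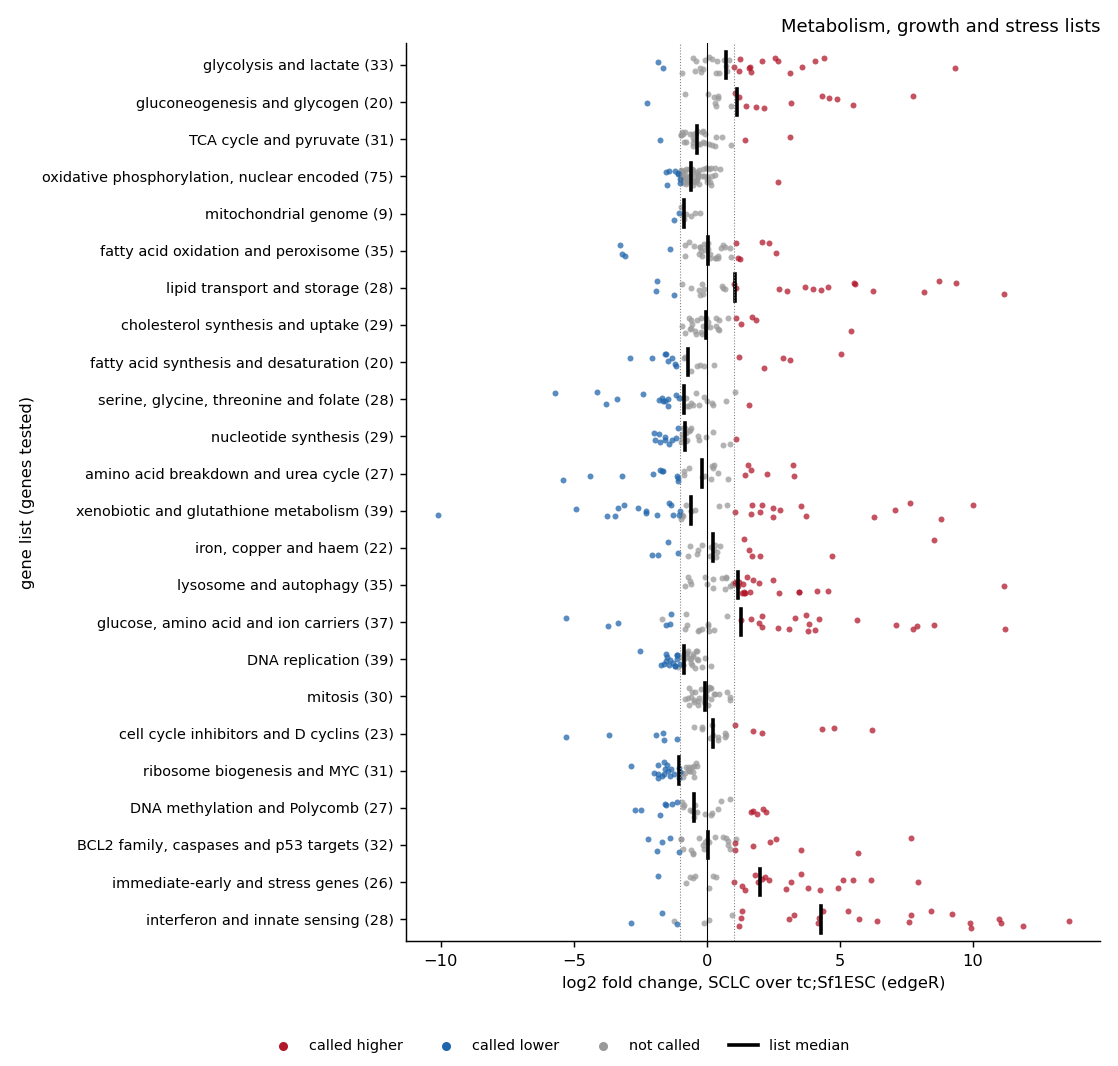
Log2 fold change of every tested gene of the metabolism, growth and stress lists (x axis, SCLC over tc;Sf1ESC, edgeR) by list (y axis, with the number of genes tested). Points are genes coloured by call, black bars are medians and dotted lines mark a 2-fold change. No gene of the mitosis list was called, no gene of the lysosome list was lower and no gene of the ribosome biogenesis or DNA replication list was higher.

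Of 28 tested genes of serine, glycine, threonine and folate metabolism 13 were lower and 1 higher, with a median of -0.86. Tdh, the threonine dehydrogenase on which mouse ESCs depend, fell from 716 and 695 CPM to 64.3 and 68.6 CPM (-3.38 ± 0.0707, edgeR adjusted p = 2.17e-05). Cth and Cbs, the enzymes of transsulfuration, fell from 95.5 and 90.7 CPM to 2.0 and 1.51 CPM (-5.70 ± 0.143) and from 65.1 and 63.6 CPM to 4.87 and 2.41 CPM (-4.12 ± 0.309). Phgdh, which opens serine synthesis, did not reach 2-fold, at 38.6 and 37.8 CPM and then 53.7 and 70.4 CPM. In the nucleotide list 10 of 29 were lower and 1 higher, with Cad, of pyrimidine synthesis, at -1.57 ± 0.149 and Rrm2, of ribonucleotide reductase, at -1.59 ± 0.0669. Of 27 tested genes of amino acid breakdown and the urea cycle 10 were lower and 6 higher. Bcat1, the cytosolic transaminase of branched-chain amino acids, fell from 786 and 775 CPM to 37.9 and 34.1 CPM (-4.41 ± 0.0851), while Glul, glutamine synthetase, rose from 149 and 149 CPM to 734 and 660 CPM (2.26 ± 0.0784).

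Of 28 tested genes of lipid transport and storage 15 were higher and 3 lower. Mttp, which loads lipid onto apolipoprotein B, rose from 2.04 and 2.82 CPM to 156 and 206 CPM (6.24 ± 0.231), while Apoe, abundant in both groups, was at 1451 and 1456 CPM and then 1187 and 1195 CPM and was not called. Of 20 tested genes of fatty acid synthesis 8 were lower and 5 higher, with Fasn, fatty acid synthase, falling from 1072 and 1092 CPM to 350 and 498 CPM (-1.32 ± 0.175). Of 35 tested genes of fatty acid oxidation 6 were higher and 4 lower, and Cpt1a, which admits fatty acids to mitochondria, fell from 198 and 200 CPM to 14.6 and 27.6 CPM (-3.20 ± 0.304). Cholesterol synthesis and uptake had a median of -0.04, with 5 of 29 genes higher and none lower. Insig1, which restrains cholesterol synthesis, rose from 157 and 162 CPM to 546 and 451 CPM (1.68 ± 0.109).

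The xenobiotic list was split evenly, with 15 of 39 tested genes higher and 15 lower. Nqo1, the quinone reductase that shares its inducers with Cyp1a1, fell from 157 and 158 CPM to 5.09 and 5.16 CPM (-4.91 ± 0.076). Cyp26a1, the enzyme that clears retinoic acid and responds to it, rose from 0.154 and 0.145 CPM to 168 and 145 CPM (10.02 ± 0.176), and Gpx3, a secreted glutathione peroxidase, from 5.21 and 4.05 CPM to 383 and 328 CPM (6.30 ± 0.161). Metallothioneins fell, Mt1 from 473 and 502 CPM to 112 and 155 CPM and Mt2 from 589 and 620 CPM to 144 and 136 CPM. The lysosome list had 20 of 35 genes higher and none lower, with a median of 1.17. Ctsh, a cathepsin, rose from 0.0771 and 0.181 CPM to 258 and 357 CPM (11.18 ± 0.344, and 11.89 without tc;Sf1ESC rep2), Lgmn, legumain, from 53.6 and 51.5 CPM to 879 and 916 CPM (4.13 ± 0.0707), and Ctsl from 220 and 226 CPM to 1980 and 2802 CPM (3.45 ± 0.189). Of 37 tested carriers 19 were higher and 6 lower, and Slc34a2, a phosphate carrier of absorptive epithelia, appeared from no more than 1 count per ESC library to 55.8 and 51.1 CPM, a ratio of 2858 with a counting interval of 513 to 112914.

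In the DNA replication list 15 of 39 genes were lower and none higher (median -0.87), and in the ribosome biogenesis list 17 of 31 were lower and none higher (median -1.04). Mcm2, of the replicative helicase, fell from 522 and 528 CPM to 217 and 175 CPM (-1.39 ± 0.115), and Polr1b, of RNA polymerase I, from 196 and 191 CPM to 51.4 and 54.3 CPM (-1.84 ± 0.0651). None of the 30 mitosis genes was called, and their median was -0.08. Mki67, the proliferation antigen Ki-67, was at 246 and 242 CPM and then 401 and 401 CPM, short of 2-fold, and Cdk1 was at 137 and 139 CPM and then 156 and 140 CPM. The D cyclins exchanged places. Ccnd1 fell from 203 and 209 CPM to 5.02 and 5.26 CPM (-5.29 ± 0.0785, edgeR adjusted p = 1.92e-05), and Ccnd2 rose from 4.13 and 4.01 CPM to 81.1 and 78.6 CPM (4.32 ± 0.089, edgeR adjusted p = 2.17e-05). Cdkn1c, the inhibitor p57, rose from 4.32 and 4.88 CPM to 79.1 and 165 CPM (4.76 ± 0.43, and 4.16 without SCLC rep2), whereas Cdkn1a, p21, fell from 366 and 373 CPM to 115 and 116 CPM (-1.64 ± 0.0588). In the DNA methylation and Polycomb list 7 of 27 genes were lower and 5 higher, with Tet1 falling from 545 and 543 CPM to 103 and 60.9 CPM (-2.70 ± 0.257) and Dnmt3a rising from 41.0 and 44.1 CPM to 129 and 178 CPM (1.89 ± 0.17).

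Of 26 tested immediate-early and stress genes 18 were higher and 1 lower, with a median of 1.99. Egr1 rose from 0.501 and 0.325 CPM to 109 and 92.5 CPM (7.95 ± 0.197), Fos from 2.43 and 1.63 CPM to 66.6 and 54.9 CPM (4.94 ± 0.218), and Jun from 10.6 and 9.72 CPM to 117 and 116 CPM (3.55 ± 0.0824). These genes respond within minutes to growth factors and to handling of cells, and of these groups only the SCLCs are described as sorted. The groups also differed in medium, with PD0325901 and LIF named for the ESCs only. Differentiation, medium and sorting therefore cannot be told apart for this list.

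Of 28 tested genes of the interferon response and innate sensing 21 were higher and 3 lower, with a median of 4.29. Irf7, a factor that amplifies the interferon response, rose from 0.309 and 0.542 CPM to 154 and 140 CPM (8.44 ± 0.183, edgeR adjusted p = 2.35e-05). Ifit1, which binds foreign RNA caps, went from 0.0386 and 0 CPM to 92.8 and 78.1 CPM, a ratio of 4562 with a counting interval of 818 to 180206, and Ifit3, its partner, from 0 counts to 64.0 and 48.9 CPM, at least 504-fold higher. Bst2, tetherin, rose from 104 and 106 CPM to 1014 and 969 CPM (3.27 ± 0.068) and at 4176 TPM was among the 15 highest genes of SCLCs. The values were alike in both SCLC libraries for each of these genes. Tmem173, the sensor adaptor STING, and Mavs, the adaptor of RNA sensors, went against the list, at 11.5 and 10.7 CPM and then 1.81 and 1.24 CPM (-2.84 ± 0.238) and at 73.1 and 68.9 CPM and then 30.7 and 32.2 CPM (-1.14 ± 0.077).

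Promoter windows of this list are shown for Ifit1 and Ifit3 because most of its members rose and interferon-responsive factors are known to bind a defined element. Windows came from RefSeq on GRCm38.p6 and were matched by symbol, which gave 28 windows for 25 of the 28 interferon genes and 14842 windows for 11635 of the tested genes. The element searched was the interferon-stimulated response element, written as GAAA, any 2 bases and GAAA again, on both strands, with overlapping matches counted. The matches are in capitals, at chr19:34640639-34640938 for Ifit1 and chr19:34583279-34583578 for Ifit3, both on the plus strand.
Ifit1: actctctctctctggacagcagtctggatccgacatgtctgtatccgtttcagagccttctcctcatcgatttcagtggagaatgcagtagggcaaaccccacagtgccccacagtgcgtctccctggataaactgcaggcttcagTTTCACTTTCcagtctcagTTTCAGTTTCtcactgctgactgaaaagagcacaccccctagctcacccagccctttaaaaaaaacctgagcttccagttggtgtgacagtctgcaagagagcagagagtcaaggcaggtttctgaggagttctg
Ifit3: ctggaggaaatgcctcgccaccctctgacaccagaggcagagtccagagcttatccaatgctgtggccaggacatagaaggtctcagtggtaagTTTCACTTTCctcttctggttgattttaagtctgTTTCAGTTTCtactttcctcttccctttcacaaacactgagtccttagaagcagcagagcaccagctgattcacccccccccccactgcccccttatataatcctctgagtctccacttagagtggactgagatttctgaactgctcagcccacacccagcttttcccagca
Each window held 2 matches, which began 104 and 85 bases before the start of Ifit1 and 156 and 122 bases before the start of Ifit3. Of the 28 windows of the list 12 (42.9%) held a match, against 3.44% of all 32851 windows and 2.83% of those of tested genes. By gene, 10 of the 19 higher members with a window held the element, 0 of the 2 lower and 2 of the 4 that were not called. Windows of all genes called higher held it in 3.75% and of those called lower in 2.33%. The GATA letters AGATAA, searched in the same way since Gata4 and Gata6 rose, were in 7.38% of the windows of genes called higher, 7.12% of those called lower and 6.63% of those of tested genes. For the AP-1 letters TGANTCA these shares were 6.94%, 5.98% and 5.30%, and for the xenobiotic response element core GCGTG they were 44.5%, 43.6% and 48.5%. These are matches of letters and say nothing about binding.

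For some genes the change depends on where the parent line stood, since the Sf1 clone already differed from tcESC in 11.7% of 16481 genes tested over 6 libraries (6.04% higher and 5.63% lower). H19, an imprinted non-coding RNA of extraembryonic and fetal tissue, was at 23.5 and 31.9 CPM in tcESC, at 0.54 and 0.325 CPM in tc;Sf1ESC and at 2860 and 4443 CPM in SCLCs. Its log2 fold change was 13.07 ± 0.41 against the parent clone and 7.10 ± 0.283 against tcESC. Vim was at 138 and 146 CPM in tcESC, so its fall was -3.33 against the clone and -1.43 ± 0.103 against tcESC. Col2a1, at 1.5 and 1.40 CPM in tcESC, was lower in SCLCs than in the clone and higher than in tcESC (1.42 ± 0.163). Lamb1 was at 101 and 96.0 CPM in tcESC and Krt18 at 22.4 and 30.5 CPM, both above the clone and far below the SCLCs. Gata4 stood at 1.85 and 2.35 CPM in tcESC, below the clone at 6.60 and 6.65 CPM (edgeR adjusted p = 0.00019), and Nr5a1 had 1 and 0 counts there. Trpm1, at 35.0 and 35.6 CPM, and Cyp1a1, at 33.3 and 34.4 CPM, were lower in tcESC than in the clone. These comparisons share libraries, and their values are given side by side only.

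**Figure D5:**
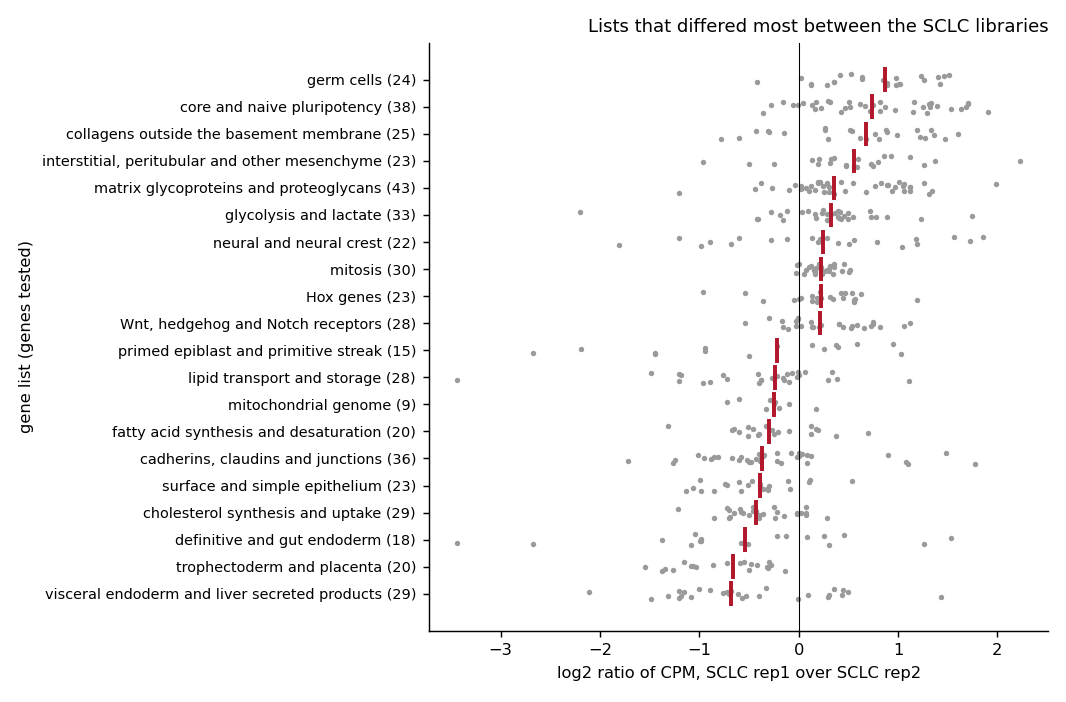
Log2 ratio of CPM between SCLC rep1 and SCLC rep2 (x axis) for every tested gene of the 10 lists with the highest and the 10 with the lowest median ratio (y axis, with the number of genes tested). Points are genes and red bars list medians. Germ cell, pluripotency and non-basement membrane collagen lists lie to the right (medians 0.87, 0.74 and 0.68) and visceral endoderm product and trophectoderm lists to the left (-0.68 and -0.66).

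The SCLC libraries differed from each other by programme. The median log2 ratio of SCLC rep1 over SCLC rep2 was 0.01 over all genes. It was 0.87 for germ cell genes, 0.74 for pluripotency genes, 0.68 for collagens outside the basement membrane and 0.56 for mesenchyme, all higher in SCLC rep1. It was -0.68 for visceral endoderm and liver products, -0.66 for trophectoderm, -0.54 for gut endoderm and -0.43 for cholesterol synthesis, all higher in SCLC rep2. The parietal endoderm, basement membrane, immediate-early and interferon lists were level, at 0.01, 0.05, 0.01 and 0.08. With 2 libraries these ratios have no replicate of their own, and their source was not tested.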

How the data were processed

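Poly-A RNA of sorted cells and ESC lines was sequenced on a HiSeq4000 as strand-specific 50 bp paired-end libraries. The authors trimmed the reads with Trim Galore, aligned them to GRCm38 with STAR 2.4.0 and deposited raw read counts per Ensembl gene for each library (Picard and HTSeq are also named in the submitters' processing notes). The counting options and annotation release are not given in the sources used here. Rows that name no gene were left out. They held, as a share of all reads, 2.83 to 5.0% not aligned, 20.5 to 27.5% aligned to several places, 6.45 to 8.32% outside genes and about 3% ambiguous over the 4 libraries. Copies of near-identical genes can therefore be undercounted. Gene names and exon lengths came from GENCODE M21, which left 849 IDs unnamed.

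Counts of the 4 libraries were tested with edgeR 4.0.16 in R 4.3.3 (quasi-likelihood, TMM, group as the only term). Genes needed a mean count above 10, and a call a fold above 2 with a Benjamini-Hochberg adjusted p under 0.05. CPM are counts scaled to 1000000 per library total on genes, TPM use union exon length, and errors are SE. Where a group had no count, folds are bounds against 3 counts per library, and where it had 1 to 3 in a library and no more in the other, ratios of pooled counts have exact 95% intervals. On simulated counts of 16281 genes for this comparison, 98% of genes changed by 2 log2 units and 100% of those changed by 3 were recovered, with 15 false calls. DESeq2 recovered 96% and 97% of them, with 12 false calls. The simulation changed 100 genes by each amount and gave both groups the same spread per gene. In the data 42.0% of genes were called and the SCLC libraries varied far more than the tc;Sf1ESC libraries. These shares therefore do not measure the error of the calls made here. Values beside tcESC came from a fit of 6 libraries.

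The gene lists (1688 names, 1375 distinct genes tested) and the comparison were chosen with earlier results of these data known, so lists are described by counts and medians with no test. Named genes were each list's defining genes, its 3 largest called changes in each direction at a mean of 1 CPM or more, the 12 largest in each direction overall at 10 CPM or more, the 15 highest by TPM, and Nr5a1. In the Hox and endothelial lists, members that moved against the named ones are given as well, whatever their level. Alternatives were other scalings and filters, DESeq2 1.42.0, a test against 2-fold, fits with more libraries, a replicate block, and leaving out each library.

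Some results are not reported here.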

Additional observations from a re-analysis of the deposited data

Results flagged for a closer look

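The share of reads that did not align was 5.0% in SCLC rep1 and 4.65% in SCLC rep2, above the 2.83% and 2.89% of the tc;Sf1ESC libraries. It stood out because these reads enter no comparison. What they were was not tested.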

How the results depend on the processing

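The counts of 4023 higher and 2917 lower genes kept within 1.5 times under every setting tried, from 3038 and 2035 when tested against a 2-fold change to 4709 and 3416 when every gene with a count was tested. DESeq2 gave 3781 and 2699. Leaving out 1 library gave 3569 to 4080 higher and 2533 to 3228 lower. A fit without SCLC rep1 or rep2 takes its spread from the ESC libraries and assumes that the lone SCLC library varies as they do.

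The same numbers did not pair the libraries, since deviations of same-numbered libraries had a correlation of -0.000756. With the replicate number as a block 4023 genes were higher and 2945 lower, 6871 of them shared with the calls without it. Under that block Dazl turned to -0.03.

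Of 191 named genes compared, 11 changed their call when some library was left out, 15 lost it when tested against a 2-fold change, 9 at an adjusted p under 0.01 and 1 with DESeq2. For 8 genes that were not called the log2 fold change crossed 0, with a range over the 4 fits of -0.95 to 0.04 for Amh, -0.21 to 1.16 for Cdx2, -0.72 to 0.68 for Dazl, -0.42 to 0.08 for Eomes, -0.18 to 0.33 for Hk2, -0.07 to 0.07 for Il6st, -0.40 to 0.01 for Pkm and -0.36 to 0.17 for Ptch1.

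With 2 libraries a group, folds of genes at or near 0 counts in a group are bounds or have wide intervals, and a cause was not tested for any value that moved.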

Other observations

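The genes of this paragraph fall outside the rule for named genes and were chosen after their values were seen. Peg10, Lamc1 and Tfcp2l1 are members of the lists. Igf2, the imprinted growth factor next to H19, rose from 1.54 and 1.30 CPM to 536 and 808 CPM (log2 fold change 8.92 ± 0.311, edgeR adjusted p = 5.81e-05). Peg10, an imprinted gene of the placenta, rose from 15.3 and 17.3 CPM to 1995 and 3276 CPM (7.37 ± 0.324), and like H19 and Igf2 it was higher in SCLC rep2. Lamc1, the laminin gamma chain that pairs with Lama1 and Lamb1, rose from 866 and 883 CPM to 4431 and 4273 CPM (2.35 ± 0.0691). Tfcp2l1, a factor of naive pluripotency, fell from 1445 and 1450 CPM to 96.1 and 71.6 CPM, and Ckb, brain creatine kinase, from 1043 and 1042 CPM to 82.0 and 92.1 CPM. Xist, the RNA of the inactive X chromosome, was low in these XY cells and rose from 4.63 and 5.17 CPM to 24.1 and 38.1 CPM (2.70 ± 0.263).

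By chromosome, the median log2 fold change ran from -0.13 on chromosome 4 to 0.24 on the X, apart from -0.86 for 11 genes of the mitochondrial genome and -0.76 for 7 genes of the Y. Of the 11 mitochondrial genes 3 were lower and none higher. Of the 7 Y genes 2 were higher and none lower. The higher ones were Kdm5d, from 1.58 and 1.88 CPM to 8.6 and 5.26 CPM, and Gm47283, from 28.9 and 28.5 CPM to 68.4 and 77.2 CPM, both named after their values were seen.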
